A study of Homo sapiens with 3 samples.

Results

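The genes described here are 54 components of the machinery that copies DNA and supplies its building blocks. They were chosen by symbol from knowledge of the pathway, with earlier results of these data known. All 54 were found among the 25270 gene symbols measured. They cover origin licensing, the replicative helicase, the polymerases, the sliding clamp and its loader, dNTP supply and chromatin copying, and were sorted into 13 complexes or steps. RNA-seq was performed on 3 libraries, 1 per condition. The first is parental HepG2, an untreated hepatocellular carcinoma cell line. The second is HepG2/metR, derived from HepG2 by survival of metformin, an inhibitor of mitochondrial complex I, over more than 5 months. The third is HepG2/metR exposed for 24 h to 40 mM oxamate, which inhibits lactate dehydrogenase. Whether metformin was still in the medium of the HepG2/metR cells when RNA was taken, and whether these cells are a clone, is not given in the sources used here.

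Replication starts when the origin recognition complex, CDC6 and CDT1 load the MCM2-7 ring onto DNA in G1 phase. In S phase the kinase DBF4-CDC7 and the factors CDC45 and GINS turn the ring into an active helicase, and DNA polymerases alpha, delta and epsilon copy the separated strands behind it. Many of these genes are transcribed at the entry into S phase under E2F transcription factors, so their RNA is commonly higher in dividing than in resting cells.

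Values are FPKM, fragments scaled to transcript length and to the number of mapped fragments, which are per length and can be compared between genes. Differences are on the scale log2(FPKM + 1), which understates the change of low genes. The fold thresholds were applied on this scale. With 1 library per condition no difference has a replicate check, no p-value was computed, and the words higher and lower describe these libraries only. The depth in reads is unknown. A mean of at least 1 FPKM over the libraries was reached by 12210 genes, including all 54 replication genes, and shares of all genes refer to these 12210.

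The labelled cell type held for the parental library but not for the HepG2/metR libraries. Of 20 hepatocyte markers, 20 reached 1 FPKM in parental cells, and 2 did so in each HepG2/metR library. Their summed level was 39342 FPKM in the parental library, 15.3 in HepG2/metR and 13.1 after oxamate. Albumin (ALB) was at 9206, 0.747 and 0.617 FPKM, APOA2 at 11976, 0.407 and 0.273, and AFP at 3989, 0.241 and 0.598. Of 15 mesenchymal markers, 7 reached 1 FPKM in parental and 11 in each HepG2/metR library, with sums of 1577, 2291 and 1742 FPKM. These sums join opposite differences. FN1 was at 1503, 45.7 and 93.7 FPKM, and VIM at 1.23, 1576 and 1140. Of the 11 kept, 7 were at least 2-fold above parental in HepG2/metR, against 16.6% of all genes, and only FN1 was at least 2-fold below. Of 6 endothelial markers, 0 reached 1 FPKM in any library. Of the 10 blood markers, 3 reached 1 FPKM in parental cells and 1 in each HepG2/metR library. Among them LYZ was at 3415, 0 and 0.23 FPKM, while CD68 was at 35.7, 43.0 and 31.0. Every comparison with the parental library carries this difference in cell identity along with the metformin selection, and the effects of these on the replication genes cannot be told apart. The oxamate comparison is between 2 libraries in which the hepatocyte markers are near 0.

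The replication genes were expressed in every library, from 3.64 FPKM (POLE2 with oxamate) to 374 FPKM (PCNA in parental cells). Their summed level was 2280 FPKM in parental cells, 2366 in HepG2/metR and 1414 after oxamate. The sum was thus 1.04 times the parental value in HepG2/metR and, with oxamate, 0.598 times that of untreated HepG2/metR. As a share of all FPKM in the library it was 0.405%, 0.443% and 0.298%. The median replication gene was at 26.0, 30.2 and 18.9 FPKM, against 10.9, 9.91 and 10.5 FPKM for the median of all genes kept. In bulk RNA, fewer cells in S phase and less of these RNAs per cell cannot be told apart.

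Oxamate-treated HepG2/metR had less of nearly every replication gene than untreated HepG2/metR. Of the 54 genes, 30 (55.6%) were at least 1.5-fold lower, against 3.82% of all genes, and 0 were at least 1.5-fold higher, against 4.3% of all genes. When the libraries were set to equal total FPKM, 19 were at least 1.5-fold lower, against 1.57% of all genes, and the counts of all genes lower and higher went from 466 and 525 to 192 and 1184. A 2-fold lower level on the log2(FPKM + 1) scale was reached by 6, namely MCM2, MCM7, CDC45, GINS2, RRM2 and TK1, against 0.524% of all genes. At equal totals it was reached by 1, against 0.352%. By FPKM itself POLE2, MCM5 and POLA1 were also past 2-fold, at 0.455, 0.493 and 0.498 times untreated HepG2/metR. Counted at any size, 52 were lower with oxamate, against 45.6% of all genes, and the exceptions were ORC2 and MCM8. The median difference was -0.65 (log2) for the replication genes and 0.02 for all genes.

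HepG2/metR and parental cells differed in both directions. The median difference was 0.09 (log2), against 0.02 for all genes. In HepG2/metR, 31 of the 54 were above parental at any size, against 50.6% of all genes. At least 2-fold above it were 5 (9.26%), namely MCM6, CDC7, POLA1, POLD3 and TK1, against 16.6% of all genes. By FPKM itself CHAF1B and POLA2 were also past 2-fold, at 2.01 and 2.04 times parental. Only ORC6 was at least 2-fold lower, against 17.6% of all genes. Past both thresholds, 2-fold above parental in HepG2/metR and 1.5-fold lower with oxamate, were MCM6, POLA1 and TK1, 3 of 54 against 0.958% of all genes. By FPKM itself CHAF1B passed both as well. The 2 comparisons share the HepG2/metR library, so a high value there alone would move a gene past both.

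Against parental cells, oxamate-treated HepG2/metR had 24 replication genes at least 1.5-fold lower, against 27.6% of all genes. It had 3 at least 1.5-fold higher (CDC7, POLA2 and POLD3), against 27.9% of all genes. By library, 31 genes were highest in HepG2/metR, 23 in parental cells and 0 with oxamate. The lowest level was with oxamate for 38 genes, in parental cells for 14 and in untreated HepG2/metR for 2. Descending from parental through HepG2/metR to oxamate was the most frequent order, seen in 21 genes, followed by HepG2/metR above parental above oxamate in 17.

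**Figure D1:**
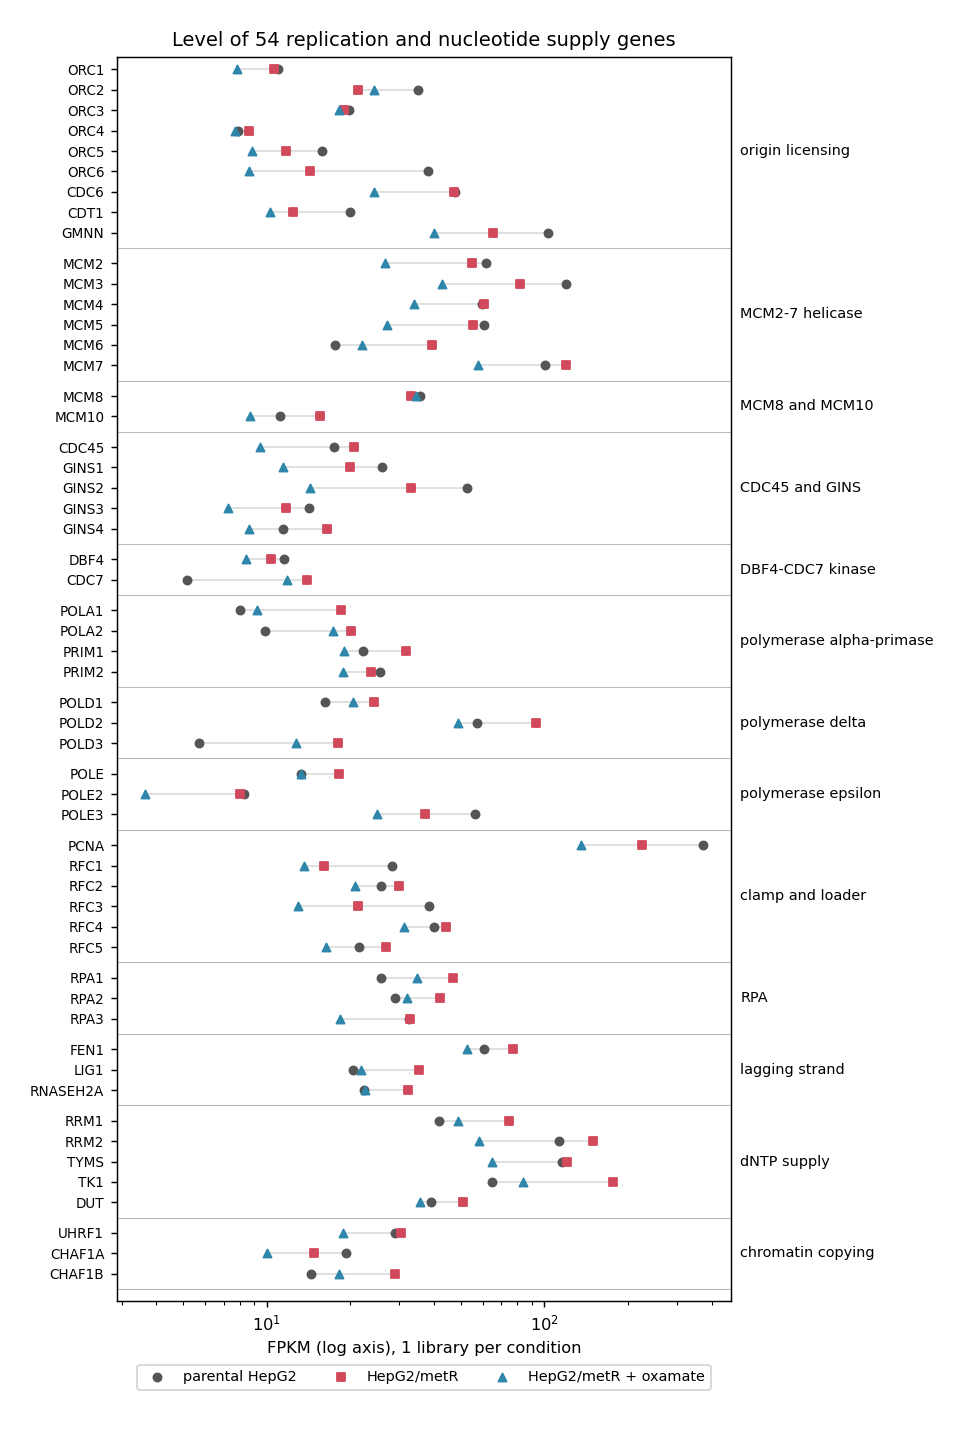
Level of each of the 54 replication genes in the 3 libraries, 1 point per gene and library, on a log axis of FPKM, with genes grouped by complex. The oxamate point lies left of the untreated HepG2/metR point in 52 genes, while parental points lie on either side.

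Promoter sequences of 6 of the genes are given because this set is known for E2F control. They come from RefSeq (GRCh38.p14) and are the 90 bases before the annotated start, 5′ to 3′ on the gene's strand. Capitals mark an E2F-type motif, 1 of TTTGGCGC, TTTGCCGC, TTTCGCGC and TTTCCCGC on either strand, and in MCM6 2 overlapping matches. MCM6, CDT1, GINS2, TYMS and RFC3 belong to different steps of replication, and ORC3 holds the motif yet differed little between the libraries. CDC20, a mitotic gene that was not among the 54, is shown for contrast, with the cell-cycle homology region (CHR, TTTGAA) in capitals. Of the mitotic genes compared below, AURKB, CDC20 and CDCA3 had the largest oxamate differences. Among these only CDC20 had a CHR match in the promoter window searched, and AURKB and CDCA3 had none.
MCM6, chr2:135876444-135876533, minus strand: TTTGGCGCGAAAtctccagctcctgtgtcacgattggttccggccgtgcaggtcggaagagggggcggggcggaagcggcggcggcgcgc
CDT1, chr16:88803699-88803788, plus strand: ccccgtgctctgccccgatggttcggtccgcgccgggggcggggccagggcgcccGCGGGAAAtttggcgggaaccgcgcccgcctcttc
GINS2, chr16:85688955-85689044, minus strand: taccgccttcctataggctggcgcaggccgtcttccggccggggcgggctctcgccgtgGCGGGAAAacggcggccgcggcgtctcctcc
TYMS, chr18:657563-657652, plus strand: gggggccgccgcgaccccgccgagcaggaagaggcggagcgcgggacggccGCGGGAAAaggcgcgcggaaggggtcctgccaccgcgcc
RFC3, chr13:33818059-33818148, plus strand: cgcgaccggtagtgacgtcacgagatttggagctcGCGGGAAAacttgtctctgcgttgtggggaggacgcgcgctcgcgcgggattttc
ORC3, chr6:87590045-87590134, plus strand: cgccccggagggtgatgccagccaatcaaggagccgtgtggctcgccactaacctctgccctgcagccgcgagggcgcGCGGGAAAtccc
CDC20, chr1:43358891-43358980, plus strand: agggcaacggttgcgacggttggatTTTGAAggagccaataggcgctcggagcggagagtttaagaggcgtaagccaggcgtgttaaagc

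Origin licensing had the lowest median difference of the 13 complexes between HepG2/metR and parental cells. The median over its 9 genes was -0.40 (log2) in HepG2/metR against parental and -0.37 with oxamate. ORC6, the smallest subunit of the origin recognition complex, was at 38.0 FPKM in parental cells, 14.3 in HepG2/metR and 8.65 with oxamate, differences of -1.35 and then -0.67. It was the only one of the 54 genes to lie at least 2-fold below parental in HepG2/metR. ORC2, a subunit of the core of the same complex, was at 35.1, 21.3 and 24.3 FPKM, lowest in untreated HepG2/metR and 0.18 (log2) higher with oxamate. The ratio of ORC6 to ORC2 accordingly went from 1.08 to 0.672 to 0.356.

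The other ORC subunits lay closer together. ORC1, the subunit whose level cycles with the cell cycle, was at 10.95, 10.6 and 7.83 FPKM, nearly equal in the untreated libraries. ORC3 was at 19.8, 18.9 and 18.2 FPKM, and ORC4 at 7.89, 8.64 and 7.70, the smallest spreads of this step. ORC5 was between these and ORC6, with a difference of -0.40 (log2) in HepG2/metR against parental and of -0.37 with oxamate.

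CDC6, the ATPase that joins ORC to load the helicase, was at 47.6, 47.1 and 24.2 FPKM. It did not separate the untreated libraries and was lower with oxamate, by a difference of -0.93 (log2). CDT1, its partner in loading, was at 19.9, 12.4 and 10.2 FPKM, with most of its difference already present between parental and HepG2/metR. Geminin (GMNN), the inhibitor that binds CDT1 outside G1 phase, was at 103, 65.2 and 40.0 FPKM, the highest level of the step in every library. The ratio of CDT1 to GMNN was 0.194 in parental, 0.191 in HepG2/metR and 0.256 with oxamate.

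The MCM2-7 helicase had the lowest median oxamate difference of the 13 complexes. Its 6 subunits form a ring in equal numbers, and all 6 were at least 1.5-fold lower with oxamate, with differences from -0.81 to -1.03 (log2) and a median of -0.96. Their summed level was 420 FPKM in parental cells, 411 in HepG2/metR and 210 with oxamate. MCM7 was at 101, 119 and 57.7 FPKM, MCM3 at 119, 81.9 and 42.6, and MCM2 at 61.8, 54.7 and 26.6. MCM5 was at 60.8, 55.2 and 27.2 FPKM and MCM4 at 59.6, 60.6 and 34.0. In each of these the oxamate library was the lowest of the 3.

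MCM6 stood apart from the other subunits in the parental library. It was at 17.6 FPKM in parental cells, 39.5 in HepG2/metR and 22.03 with oxamate, and was the only subunit above its parental level in the oxamate library, by 0.31 (log2). Its share of the summed MCM2-7 level was 4.20% in parental, 9.59% in HepG2/metR and 10.5% with oxamate, whereas that of MCM3 was 28.5%, 19.9% and 20.3%. The ratio of the highest to the lowest subunit was 6.78 in parental, 3.03 in HepG2/metR and 2.62 with oxamate, so the subunit levels were closest together in the oxamate library.

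MCM8 and MCM10 are not part of this ring. MCM8, a helicase of homologous recombination, was at 35.6, 32.9 and 34.6 FPKM, and with ORC2 was 1 of the 2 genes not lower with oxamate. MCM10, which helps to activate the helicase, was at 11.1, 15.5 and 8.72 FPKM, a difference of -0.76 (log2) with oxamate, close to those of the ring.

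**Figure D2:**
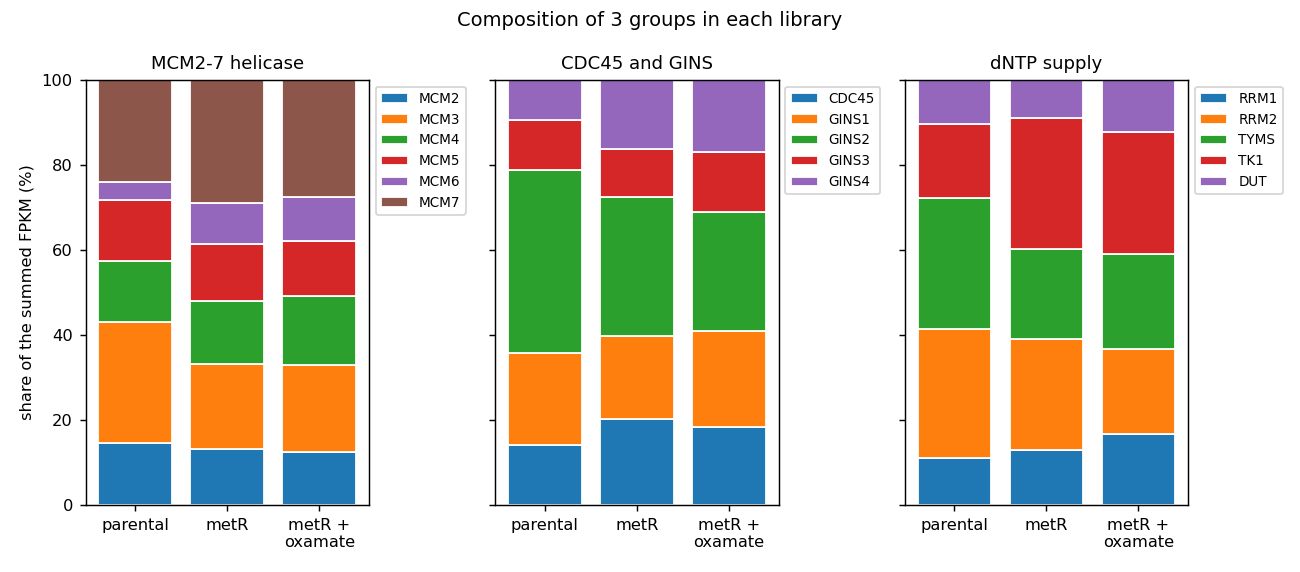
Share of the summed FPKM held by each gene, in percent, in the 3 libraries, for MCM2-7, for CDC45 and GINS, and for dNTP supply. The MCM6 share of MCM2-7 was 4.20% in parental, 9.59% in HepG2/metR and 10.5% with oxamate.

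The helicase partners CDC45 and GINS were all at least 1.5-fold lower with oxamate, with a median of -0.86 (log2) over the 5 genes. GINS2 was at 52.5, 33.2 and 14.3 FPKM, and its difference of -1.16 with oxamate was second in size to that of RRM2 among the 54. CDC45, which completes the active helicase, was at 17.4, 20.7 and 9.42 FPKM, a difference of -1.06. GINS3 was at 14.2, 11.7 and 7.22 FPKM, with -0.63 with oxamate just past the threshold. GINS2 held 43.2% of the summed level of this group in parental, 32.5% in HepG2/metR and 28.0% with oxamate. GINS1 and GINS4, the remaining subunits, differed by -0.75 and -0.86 with oxamate, while against parental GINS4 was 0.49 higher in HepG2/metR and GINS1 differed by -0.37.

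The DBF4-CDC7 kinase, which phosphorylates the MCM ring to start replication, was among the steps least different with oxamate, at a median of -0.25 (log2). CDC7, the catalytic subunit, was at 5.16 FPKM in parental cells, 13.9 in HepG2/metR and 11.8 with oxamate, and so stayed 1.05 (log2) above parental after oxamate. DBF4, its activating subunit, was at 11.5, 10.3 and 8.42 FPKM. The ratio of DBF4 to CDC7 was 2.23 in parental and 0.743 and 0.715 in the HepG2/metR libraries.

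Polymerase alpha-primase, which lays down the primers, was mostly above parental in HepG2/metR, with a median of 0.73 (log2) over its 4 genes. POLA1, the catalytic subunit, was at 7.98, 18.5 and 9.20 FPKM, 1.12 above parental in HepG2/metR and back near the parental level with oxamate. POLA2, the accessory subunit, was at 9.88, 20.1 and 17.3 FPKM, so it shared the HepG2/metR level but differed by -0.20 with oxamate. PRIM1, the catalytic primase subunit, was at 22.1, 31.8 and 18.9 FPKM, with a difference of -0.72 with oxamate. PRIM2, the large primase subunit, differed by -0.10 and then -0.32.

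Polymerase delta, which copies the lagging strand, was above parental in HepG2/metR for all 3 of its genes among the 54, with a median of 0.70 (log2). POLD3 was at 5.70, 18.1 and 12.7 FPKM, and its difference of 1.51 from parental was the largest of the 54. POLD2 was at 57.2, 93.5 and 49.0 FPKM, 0.70 higher in HepG2/metR and then -0.92 with oxamate. POLD1, the catalytic subunit, was 0.56 higher in HepG2/metR and differed by -0.24 with oxamate, so larger and smaller oxamate differences occurred within the same enzyme. POLD4, a further subunit counted with the fork and origin factors, was at 7.48, 11.36 and 11.41 FPKM. It was 0.54 higher in HepG2/metR and differed by 0.006 with oxamate.

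Polymerase epsilon, which copies the leading strand, had a median of -0.05 (log2) in HepG2/metR and -0.55 with oxamate over its 3 genes among the 54. POLE4, a further subunit counted with the fork and origin factors, differed by -0.86 and then -0.26. POLE2 was at 8.30, 8.002 and 3.64 FPKM, the lowest value of all 54 genes being the last of these. POLE3, a histone-fold subunit that is also part of a chromatin remodeller, was at 56.1, 37.0 and 25.0 FPKM. Its difference of -0.55 lay just short of the oxamate threshold of -0.58, as did that of FEN1 at -0.54, while RRM1 at -0.60 and GINS3 lay just past it. POLE, the catalytic subunit, was 0.43 higher in HepG2/metR and differed by -0.43 with oxamate.

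PCNA, the sliding clamp that holds the polymerases on DNA, was the most abundant of the 54 genes in every library. It was at 374 FPKM in parental cells, 224 in HepG2/metR and 136 with oxamate, differences of -0.73 and then -0.72 (log2). The subunits of the clamp loader lay on both sides of their parental level. RFC1, its large subunit, was at 28.2, 16.1 and 13.6 FPKM, and RFC3 at 38.3, 21.3 and 12.9, both below parental in HepG2/metR by differences of -0.77 and -0.82. RFC2, RFC4 and RFC5 were 0.14 to 0.31 higher in HepG2/metR. All 5 loader genes were lower with oxamate, RFC1 least at -0.23 and RFC3 and RFC5 most at -0.68, and the ratio of PCNA to RFC4 went from 9.33 to 5.06 to 4.33.

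RPA coats single-stranded DNA as a trimer. RPA1, its large subunit, was at 25.9, 47.0 and 34.6 FPKM, and so lay above parental in both HepG2/metR libraries. RPA3, the small subunit, was at 32.4, 32.8 and 18.3 FPKM, nearly equal in the untreated libraries and lower with oxamate by a difference of -0.81 (log2). RPA3 held 37.2% of the summed RPA level in parental, 26.9% in HepG2/metR and 21.6% with oxamate. RPA2 was 0.53 higher in HepG2/metR and differed by -0.39 with oxamate.

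The genes that mature Okazaki fragments were above parental in HepG2/metR by 0.35 to 0.75 (log2), and lower with oxamate by differences of -0.50 to -0.67. FEN1, the flap endonuclease, was at 60.5, 77.3 and 52.7 FPKM. LIG1, the ligase that seals the fragments, was at 20.5, 35.2 and 21.8 FPKM, with the oxamate level 0.08 (log2) above parental. RNASEH2A, which removes RNA primers and single ribonucleotides, was 0.51 above parental in HepG2/metR and differed by -0.50 with oxamate.

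dNTP supply held the gene with the largest oxamate difference. RRM2, the regulated small subunit of ribonucleotide reductase, was at 113 FPKM in parental cells, 150 in HepG2/metR and 58.0 with oxamate, a difference of -1.35 (log2) with oxamate. RRM1, the large subunit, was at 41.7, 74.7 and 48.8 FPKM. The ratio of RRM2 to RRM1 was 2.70, 2.003 and 1.19, lowest with oxamate. RRM2B, the alternative small subunit, was not among the 54 and was looked up after the RRM2 values had been seen. It was at 11.7, 19.9 and 26.2 FPKM, highest with oxamate, where RRM2 was lowest.

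Thymidylate can be made or salvaged. TYMS, which makes it from dUMP, was at 116, 121 and 64.9 FPKM, nearly equal in the untreated libraries and -0.89 (log2) with oxamate. TK1, the S-phase thymidine kinase of the salvage route, was at 64.6, 177 and 84.1 FPKM, 1.44 higher in HepG2/metR and -1.06 with oxamate. The ratio of TK1 to TYMS was 0.559 in parental, 1.46 in HepG2/metR and 1.30 with oxamate, so the salvage enzyme had the higher level in both HepG2/metR libraries. DUT, which breaks down dUTP to keep uracil out of DNA, was at 39.1, 51.1 and 35.5 FPKM.

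Chromatin copying was represented by UHRF1, which reads hemimethylated DNA, and by the large subunits of the histone chaperone CAF-1. UHRF1 was at 29.0, 30.4 and 18.8 FPKM, and CHAF1A at 19.3, 14.8 and 10.0. CHAF1B was at 14.4, 28.9 and 18.2 FPKM. Its difference of 0.96 (log2) in HepG2/metR lay just short of the 2-fold threshold on the log2(FPKM + 1) scale, as did that of POLA2. By FPKM itself CHAF1B was 2.01 and POLA2 2.04 times parental, past 2-fold. The ratio of CHAF1A to CHAF1B was 1.34 in parental and 0.513 and 0.550 in the HepG2/metR libraries. Between parental and HepG2/metR the partners within CAF-1, DBF4-CDC7 and MCM2-7 thus differed in opposite directions or by unequal amounts, while with oxamate the partners CHAF1A and CHAF1B differed by -0.52 and -0.64.

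**Figure D3:**
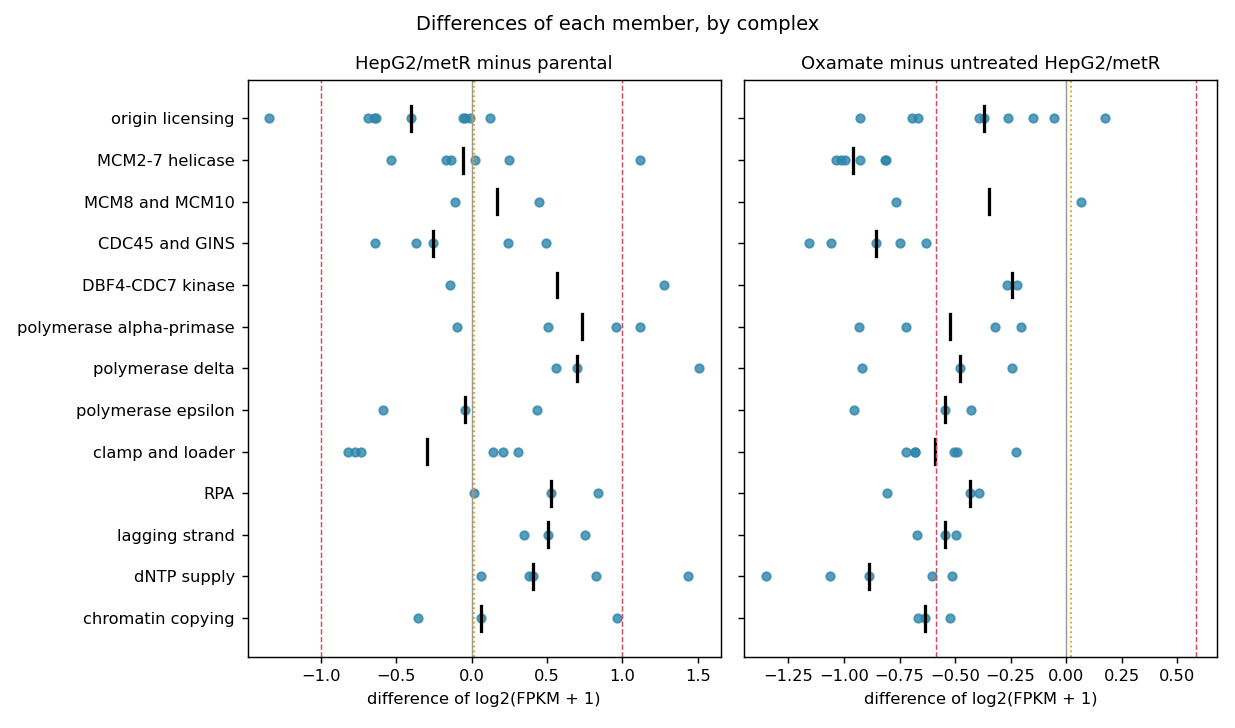
Log2 difference of each of the 54 genes, grouped by complex, with HepG2/metR minus parental in one panel and oxamate-treated minus untreated HepG2/metR in the other; 1 point is 1 gene, black bars are medians of the complex, dashed lines the fold thresholds and the dotted line the median of all genes. The oxamate points lie left of 0 in 52 genes, with MCM2-7 between -0.81 and -1.03, while the other panel spans -1.35 (ORC6) to 1.51 (POLD3).

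Other genes around the same process were compared in lists written from general knowledge, with earlier results of these data known. Of 36 further fork and origin factors, 5 were at least 1.5-fold lower with oxamate, against 3.82% of all genes. In HepG2/metR, 0 were at least 2-fold above parental, against 16.6% of all genes. The medians were -0.31 with oxamate and 0.34 against parental (log2). ASF1B, a histone chaperone, was at 18.5, 22.8 and 12.3 FPKM, FBXO5, an inhibitor of the anaphase-promoting complex, at 23.8, 17.8 and 9.82, and DTL, which targets CDT1 for destruction, at 13.0, 21.3 and 11.8. ASF1A, the sister of ASF1B, was at 30.8, 8.19 and 9.40 FPKM, with the largest difference of this list from parental, -1.79. SUPT16H, a subunit of the histone chaperone FACT, was at 108, 56.1 and 40.9 FPKM, and MTBP, which helps to fire origins, at 4.24, 9.08 and 6.30.

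Of 36 genes of nucleotide synthesis outside the 54, 7 were at least 1.5-fold lower with oxamate, with a median of -0.29 (log2), against 3.82% and 0.02 for all genes. In HepG2/metR 6 (16.7%) were at least 2-fold above parental, against 16.6% of all genes. MTHFD2, a mitochondrial folate enzyme, was at 84.8, 179 and 105 FPKM, and SLC29A1, a nucleoside transporter, at 52.1, 64.1 and 35.3. Both were highest in untreated HepG2/metR. CTPS1, which makes CTP, was at 38.6, 162 and 143 FPKM, and CDA, a cytidine deaminase of salvage, at 3.38, 18.7 and 25.2. PRPS2, which makes the ribose donor of nucleotides, was at 14.1, 41.5 and 30.0 FPKM. With oxamate these 3 were still above parental by 1.04 to 2.58 (log2), and CDA was above its untreated HepG2/metR level.

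DNA polymerases of repair and translesion synthesis did not share the lower oxamate level. Of the 13 kept of 15, 0 were at least 1.5-fold lower with oxamate, against 3.82% of all genes. Only POLH was at least 1.5-fold higher, against 4.3% of all genes, and the median was 0.05 (log2). For 13 genes, both counts are near the shares of all genes. POLH, which copies past ultraviolet lesions, was at 3.91, 7.21 and 13.2 FPKM, and POLK, another translesion polymerase, at 3.38, 10.3 and 13.2. POLG2, a subunit of the mitochondrial polymerase, was at 12.8, 22.6 and 29.3 FPKM, and REV3L, the catalytic subunit of polymerase zeta, at 6.69, 2.56 and 3.16. These 4 were higher with oxamate than without, and PRIMPOL, a primase that restarts stalled forks, was lower, at 4.35, 7.99 and 5.47 FPKM. Replicative subunits at comparable FPKM differed with oxamate by 0.006 (POLD4), -0.20 (POLA2), -0.24 (POLD1), -0.32 (PRIM2), -0.43 (POLE), -0.48 (POLD3), -0.72 (PRIM1), -0.93 (POLA1) and -0.96 (POLE2). The -0.47 of PRIMPOL lay within this range.

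Of 18 genes of the E2F and RB family, 3 (E2F1, E2F2 and MYBL2) were at least 1.5-fold lower with oxamate, against 3.82% of all genes. The median was -0.21 (log2). E2F1, an activator of S-phase genes, was at 28.4, 29.1 and 17.9 FPKM, and E2F2 at 3.51, 2.17 and 1.04. MYBL2, an E2F target that activates mitotic genes, was at 44.3, 35.6 and 18.8 FPKM, so all 3 were lowest with oxamate. E2F3 was at 11.4, 15.5 and 13.2 FPKM, E2F4 at 49.8, 45.6 and 38.1, E2F5 at 13.2, 9.33 and 13.6, and E2F6 at 19.2, 8.21 and 7.47. The repressors E2F7 and E2F8 were lowest in parental cells, at 2.32, 12.7 and 10.8 and at 4.92, 11.8 and 7.65 FPKM. E2F1 itself thus differed by 0.04 between parental and HepG2/metR, and by -0.67 with oxamate, next to the -0.65 of the median replication gene.

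A list of 50 mitotic genes differed from the replication genes in the first comparison more than in the second. With oxamate, 16 of the 50 were at least 1.5-fold lower, against 3.82% of all genes (6 at equal total FPKM, against 1.57%). Counted at any size, 50 of the 50 were lower, against 45.6% of all genes. Their median was -0.52 (log2) against -0.65 for the replication genes. In HepG2/metR, 14 of the 50 were at least 2-fold above parental, against 16.6% of all genes. Under upper-quartile scaling 24 were, against 18.9%. The mitotic median was 0.84 against 0.09 for the replication genes. CDC20, an activator of the anaphase-promoting complex, was at 61.6, 156 and 76.3 FPKM, AURKB, a mitotic kinase, at 44.8, 77.8 and 31.5, and CDCA3, a trigger of mitotic entry, at 25.7, 54.8 and 27.0. CEP55 and ANLN, which act in cytokinesis, were at 13.5, 55.5 and 42.5 and at 30.3, 98.8 and 76.2 FPKM, and PTTG1, the securin of sister chromatids, at 102, 312 and 185. These 3 were above parental in both HepG2/metR libraries. No test of the difference between these lists was possible with 1 library per condition.

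The E2F-type motif was searched in the 250 bases before each start in the RefSeq promoter table, on both strands. A start was listed for 48 of the 54 genes, 67 starts in all. The motif was present at 18 of these starts (26.9%, exact binomial 95% interval 16.8% to 39.1%), belonging to 17 genes, against 2.79% of all 35116 starts and 4.20% of the starts of genes kept. The E2F and RB family had it at 25.0% of 24 starts, so it was not particular to the replication genes. The remaining lists had it at 11.8% (repair polymerases), 11.4% (fork and origin factors), 5.56% (mitotic genes) and 4.17% (nucleotide synthesis). The CCAAT box (CCAAT), bound by NF-Y, was present at 50.7% of the starts of replication genes, 32.0% of all starts, 33.1% of the starts of genes kept and 70.4% of mitotic starts. The CHR was at 4.48% of the replication starts, 13.3% of all starts, 8.93% of the starts of genes kept and 50.0% of mitotic starts, so the replication and mitotic lists, both lower with oxamate, differ in these letters. These intervals treat the starts as independent, which starts of 1 gene are not.

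Of the 24 E2F-type matches in the replication genes, 13 lay within 60 bases of the start, and the median distance was 57 bases. The 17 genes with a match had a median oxamate difference of -0.68 (log2), with 11 at least 1.5-fold lower. The 31 without a match had a median of -0.55, with 15 at least 1.5-fold lower. For the motif without its first T the shares at least 1.5-fold lower were 57.7% of 26 genes with a match and 50.0% of 22 without. For the CCAAT box they were 67.9% of 28 and 35.0% of 20. Among all genes kept, 5.50% of the 527 with an 8-letter match and 3.50% of the 8574 without were at least 1.5-fold lower, with medians of -0.03 and 0.02. Without the first T these shares were 4.47% of 1989 and 3.37% of 7112. For the CCAAT box they were 5.18% of 3819 with and 2.48% of 5282 without, so a CCAAT difference was also present among all genes. RRM2 and TK1, with 2 of the largest oxamate differences, had no 8-letter match in this window but did have one without the first T, as did all 5 dNTP supply genes, whereas ORC3, whose sequence is printed above, had a match and differed by -0.05. A match is a description of letters and no record of binding.

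Several of these genes start within 1000 bases of a gene read in the opposite direction. This comparison was added after the oxamate differences had been seen. In 12 such pairs with a kept neighbour, the neighbours had a median oxamate difference of -0.11 (log2), from -0.59 to 0.09, and the replication genes of the same pairs one of -0.49. In 10 of the 12 pairs the neighbour's difference was less negative than that of the replication gene. TPRA1, beside MCM2, was at 9.42, 14.99 and 14.7 FPKM, CDS2, beside PCNA, at 13.3, 9.51 and 10.2, and VPS35, beside ORC6, at 59.1, 37.1 and 36.3. AP4M1, which overlaps MCM7, was the only neighbour at least 1.5-fold lower, at 5.98, 11.5 and 7.29 FPKM. TMEM258, beside FEN1, differed by -0.53, near the -0.54 of FEN1.

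The strand setting of the counting is not given in the sources used here, so reads of genes that overlap on opposite strands cannot be told apart. Among the 54, MCM7, GINS2, TYMS, RFC5, PRIM2, CHAF1A, ORC1 and ORC3 overlap a gene that reached 5 FPKM in a library. For GINS2 the overlapping gene is GSE1, at 12.3, 1.68 and 2.05 FPKM, and TYMS is overlapped by TYMSOS, at 16.8, 0.327 and 1.13, and by ENOSF1, at 5.28, 3.20 and 2.48. All of these were highest in parental cells. GSE1 and TYMSOS were higher with oxamate than without, and ENOSF1 was lower, as GINS2 and TYMS were.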

How the data were processed

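The authors extracted RNA with Trizol and sequenced 1 library each of parental HepG2, of HepG2/metR and of HepG2/metR under oxamate. The values the authors deposited are log2 values, 1 per symbol and library, and have the form of log2(FPKM + 1), a unit inferred from the values. The submitters' processing notes name STAR 2.5.1b, FastQC 0.11.5, Cufflinks 2.2.1 and hg19, with no role or order; annotation, strand setting and filters are not given in the sources used here. Groups were taken from the labels.

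FPKM was recovered as the power of 2 minus a pseudocount of 1. Of 25270 symbols, 28 had become dates or occurred more than once and were not used by name. The 12210 genes with a mean of at least 1 FPKM were kept. Folds of 2 (HepG2/metR against parental) and 1.5 (oxamate against untreated HepG2/metR) are those of the study's methods, and 1.5 was also used for oxamate against parental. No test was possible. The calculation was tested on simulated data. The replication genes and all lists were chosen with earlier results of these data known, and the lists support nothing on their own.

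Values in all libraries were printed for the highest and lowest genes of each complex, the 5 largest and smallest differences, the genes nearest a threshold and the defining genes of each step. In other lists they were printed for the 3 largest differences, and for E2F1 to E2F8, except for a gene that is not reported here. RRM2B, POLD4, POLE4, LYZ, CD68, FN1, VIM and the neighbouring or overlapping genes fall outside that rule and were added after their values were seen.

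Promoters are from RefSeq GRCh38.p14 and not from the build of the files, which hold no coordinates. They were matched by symbol for 48 of 54 genes. Protein motifs were not run. Alternatives were other pseudocounts (0.1, none), filters (none, mean of 5 FPKM), folds and scalings. Python 3.11, numpy 2.4.6, pandas 2.3.3 and matplotlib 3.10.9 were used.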

Additional observations from a re-analysis of the deposited data

How the results depend on the processing

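With 1 library per condition the spread between replicates is unknown, so every count above depends on where the fold is set. At 2-fold in both comparisons, 6 replication genes were lower with oxamate, against 0.524% of all genes. Below parental with oxamate were 11, and 1 passed both thresholds. At 1.5-fold in both, 11 lay above and 9 below parental in HepG2/metR, and 7 passed both thresholds. Apart from the 0.524%, no share of all genes is given for these counts, so they show nothing particular to the replication genes. When each library was scaled to the same total FPKM, 19 genes were at least 1.5-fold lower with oxamate, against 1.57% of all genes. That scaling moved the median of all genes with oxamate to 0.17 (log2), and the median replication gene stood at -0.65 relative to it, against -0.67 as reported. Upper-quartile scaling moved the median of all genes in HepG2/metR against parental to 0.15. The number of replication genes above parental was then 38, in place of 31. Of all genes past 1.5-fold with oxamate, 53.0% were higher as reported, 86.0% at the same total, 63.9% under upper-quartile scaling, 62.6% with a pseudocount of 0.1, 64.1% with none and 40.2% at a mean of 5 FPKM. Without the first T of the E2F-type motif, 43.3% of replication starts held it. At the same total FPKM, 1 replication gene was at least 2-fold lower with oxamate, in place of 6, against 0.352% of all genes. At least 1.5-fold above parental with oxamate were 5, in place of 3. The share of all genes for the latter is given only as reported, 27.9%. The counts at least 1.5-fold lower were then 6 mitotic genes, 3 fork and origin factors, 3 nucleotide synthesis genes and 1 E2F or RB gene, in place of 16, 5, 7 and 3. With a pseudocount of 0.1 or none, 5 E2F or RB genes were at least 1.5-fold lower with oxamate, against 4.97% and 5.09% of all genes. At these settings 2 fork factors were at least 2-fold above parental, against 19.1% and 17.0% of all genes. Under upper-quartile scaling 3 fork factors and 24 mitotic genes were at least 2-fold above parental, against 18.9% of all genes. These counts were added after seeing the data. The differences of the 54 genes and the medians of the lists stayed within 0.207 (log2, the median absolute oxamate difference of all genes) of those reported under each pseudocount, filter and scaling. No paired analysis was possible because each condition has 1 library.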
